A study of Mus musculus with 2 samples.

Results

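Lrrc32, Bmpr2 and Lemd3 are 3 genes that act at different steps of signalling by transforming growth factor beta (TGF-beta) and the bone morphogenetic proteins (BMPs). They were taken from a comparison of 2 mouse mesoangioblast clones, D351 and D16, and all probe sets annotated to each of them alone were used. A probe set is a group of short oligonucleotides that together read 1 transcript. The rule found 5 probe sets of the 11868 on the array that were not manufacturer's controls, and 3 genes of 5928. The genes were selected on their intensities in D351 and D16, the same values given below, so these values are a description of the 2 arrays and support nothing further.

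Mesoangioblasts are vessel-associated progenitors from the embryonic aorta that can take on mesodermal fates. The clone D351 and the clone D16 both came from the dorsal aorta of C57BL6 embryos at embryonic day 9.5. The aorta was kept in explant culture for 5 days, and the cells were then cloned on mitomycin C-treated embryonic fibroblasts and expanded on gelatin, as the labels describe. No treatment or genetic change is given for either clone. Each clone is represented by 1 RNA sample on 1 array, array C of the mouse U74 set from Affymetrix. There is therefore no replicate, no test is possible, and no value can be carried over from the clone to a class of cells. In such bulk RNA, fewer cells of a type and less RNA per cell cannot be told apart.

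TGF-beta is secreted in a latent form, held inactive by its own propeptide, and must be docked and released before it can bind a receptor. Ligands of the family assemble type I and type II receptor kinases at the cell surface, and the type I kinase phosphorylates SMAD proteins that pass into the nucleus. Lrrc32 encodes GARP, a leucine-rich repeat protein that docks latent TGF-beta on the plasma membrane and is best known from regulatory T cells and platelets. Bmpr2 encodes the type II receptor for BMPs, a kinase whose loss in humans underlies heritable pulmonary arterial hypertension. Lemd3 encodes MAN1, a protein of the inner nuclear membrane that binds receptor-activated SMADs and dampens both branches of the pathway.

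The genes did not differ between the clones in the same way. Lrrc32 was 44.0-fold brighter in D351, Bmpr2 was 2.59-fold brighter in D16, and Lemd3 differed by less than 2-fold, the fixed rule of size. A value at or below 6.4, the median of all values, was called dim and raised to that floor before a ratio was taken. A gene above the floor in D351, in D16 or in both is called measured. Of 3934 measured genes, 10.3% passed 2-fold towards D351 and 10.2% towards D16. These shares include the contrast by which the members were chosen, and nothing is read from them about the 3 genes.

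**Figure D1:**
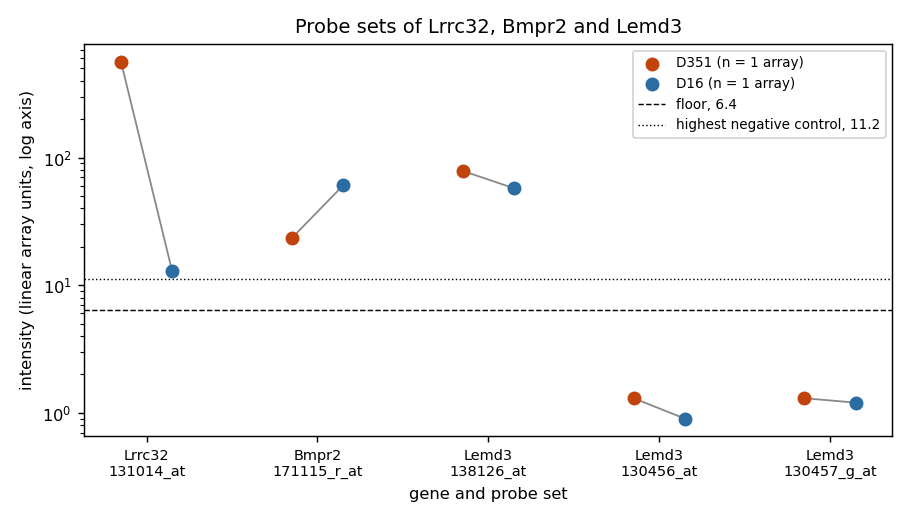
Intensity of each probe set of Lrrc32, Bmpr2 and Lemd3 in D351 (orange) and D16 (blue), 1 array each, on a log axis in linear array units. The dashed line is the floor of 6.4 and the dotted line is the highest negative control value, 11.2. Lrrc32 stands at 563 in D351 and 12.8 in D16, and 2 of the 3 Lemd3 probe sets lie below both lines.

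Lrrc32, on chromosome 7, was read by 1 probe set, 131014_at, which carries no mark for relaxed probe design. Its intensity was 563 in D351 and 12.8 in D16. The transcript was thus bright in D351 and close to background in D16, since the highest value among 19 negative controls, probe sets against bacterial and yeast RNA, was 11.2 in D351 and 10.8 in D16. The log2 ratio, D351 minus D16, was 5.46. It ranked 1 among 3061 genes above the floor in both clones. It ranked 4 among all 3934 measured genes, where 3 genes with only a lower bound stood further towards D351. Because the D16 value lay so near the negative controls, the size of the fold rests on a dim reading. With a floor of 20.7, the 75th percentile of the values, Lrrc32 was at least 27.2-fold higher in D351.

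Bmpr2, on chromosome 1, was read by 1 probe set, 171115_r_at, with an intensity of 23.4 in D351 and 60.5 in D16. Both values lay above every negative control, and the lower one belonged to D351. The log2 ratio was -1.37, so Bmpr2 was 2.59-fold higher in D16. Among the measured genes, 206 lay at least as far towards D16, which is 5.24% of them. The letter r in the identifier marks a probe set for which the manufacturer relaxed its design rules, and no unmarked probe set of Bmpr2 was on the array.

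How well such marked probe sets repeat an unmarked one could be read from other genes. For 74 genes, a probe set marked r and an unmarked one were above the floor in both clones. Their log2 ratios had the same sign in 38 genes (51.4%) and correlated across genes with a Pearson r of 0.246. Past 2-fold towards D16 by the marked probe set were Slc14a1 (-2.78), Ssh1 (-2.46), Tk1 (-1.27) and B3galt1 (-1.14). Their unmarked probe sets gave 0, 0.29, -0.23 and -0.19, none past 2-fold. Towards D351 were Actr1a, Rb1cc1, Synpo2, Syt7 and Tmem185b. Of these, only Rb1cc1 and Synpo2 also passed 2-fold by the unmarked probe set. Picked instead by the unmarked probe set, BC003965, Dcun1d5, Fuz, G2e3 and Hbegf passed 2-fold towards D16. None of them did by the marked one. Towards D351 were Pdlim7, Rb1cc1, Rgs8, Rnf157, Stx11, Synpo2 and Syt11, again with only Rb1cc1 and Synpo2 past 2-fold by both. Of all measured probe sets, 9.37% of those marked r and 9.43% of unmarked ones passed 2-fold towards D16. Towards D351 the shares were 7.31% and 9.90%. All 74 pairs share the same 2 arrays, and genes are not independent replicates. The SD was 0.71 log2 per probe set, against 0.67 for the 409 genes with any pair of probe sets above the floor in both clones. Over those 409 genes the sign was the same in 244 (59.7%) and the Pearson r was 0.383. Pairs of probe sets thus often disagreed in both sets of pairs. The 409 pairs can include probe sets marked r, so pairs without this mark were not read apart. The difference between the sets of pairs was not tested. The ratio of Bmpr2 is a single reading with no second probe set beside it.

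**Figure D2:**
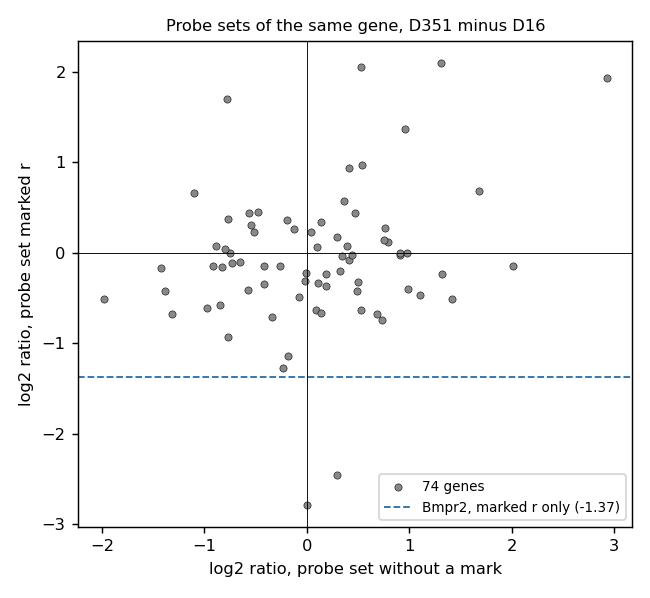
Log2 ratios, D351 minus D16, of 74 genes read both by a probe set without a mark (horizontal axis) and by one marked r (vertical axis), each point a gene. The points scatter over all quadrants (r = 0.246), and the dashed line gives the value of Bmpr2, -1.37, for which no unmarked probe set was on the array.

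Lemd3, on chromosome 10, was read by 3 probe sets. The brightest, 138126_at, carries no mark and had an intensity of 78.6 in D351 and 57.5 in D16. This is a 1.37-fold difference towards D351, with a log2 ratio of 0.45, below the SD of 0.67 log2 between probe sets of the same gene. The ratio does not pass the 2-fold rule, and 25.9% of the measured genes lay at least as far towards D351. The other probe sets were dim in both clones. The probe set 130456_at stood at 1.3 in D351 and 0.9 in D16, and 130457_g_at at 1.3 in D351 and 1.2 in D16. Both are annotated to the same expressed sequence, a different one from that of 138126_at, so they are not independent of each other. They give no ratio, and the Lemd3 value rests on 138126_at.

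**Figure D3:**
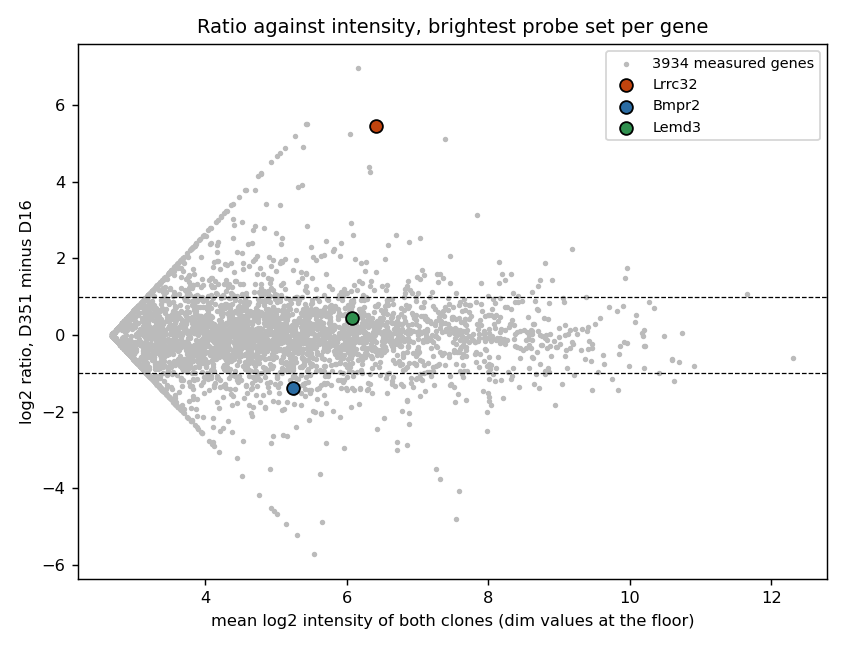
Log2 ratio, D351 minus D16, against the mean log2 intensity of both clones for 3934 measured genes (grey), with dashed lines at 2-fold. Lrrc32 (5.46) lies near the top of the cloud, Bmpr2 (-1.37) below the lower line and Lemd3 (0.45) between the lines.

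The stretches of 250 bases before the annotated start of Bmpr2 and Lemd3 are shown because both genes are parts of the pathway that ends in SMAD binding to DNA. The sequences are from RefSeq, build GRCm38.p6, 5′ to 3′ on the strand of the gene, and 2 of the 3 genes matched the table of promoters. Bmpr2 is at chr1:59764029-59764278 on the plus strand and Lemd3 at chr10:120979331-120979580 on the minus strand. Capitals mark GGCGCC, the GC-rich motif that SMADs of the BMP branch can bind.
Bmpr2: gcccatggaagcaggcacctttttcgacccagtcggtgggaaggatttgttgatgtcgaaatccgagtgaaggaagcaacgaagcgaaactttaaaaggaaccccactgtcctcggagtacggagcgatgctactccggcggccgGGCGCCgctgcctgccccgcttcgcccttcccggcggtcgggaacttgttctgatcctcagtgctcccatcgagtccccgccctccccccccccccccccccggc
Lemd3: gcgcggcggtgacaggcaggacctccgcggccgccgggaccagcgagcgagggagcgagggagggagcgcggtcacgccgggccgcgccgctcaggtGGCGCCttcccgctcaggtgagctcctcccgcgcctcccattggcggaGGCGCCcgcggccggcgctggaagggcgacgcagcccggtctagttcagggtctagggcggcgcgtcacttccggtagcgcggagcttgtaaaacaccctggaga
The motif GGCGCC, which reads the same on both strands, occurred 1 time before Bmpr2, with its first base 105 bases before the start. It occurred 2 times before Lemd3, with first bases 153 and 105 bases before the start. Of 32851 stretches of this length before annotated starts, 9.59% held it. CAGAC, a 5-base form of the SMAD box, searched on both strands, was in neither window and in 42.2% of all windows. Shorter forms of the box were not searched. The palindrome GTCTAGAC was in neither and in 0.167% of all. It shares no full match with CAGAC. The GC content was 64% before Bmpr2 and 74.4% before Lemd3, against a median of 52.4% over all windows. A match of letters is a description of the sequence and not a site. The arrays measured RNA and gave no reading of these windows.

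The rest of the pathway was described by 10 lists, ordered by role, that together held 248 genes. The array carried 62 of them and 39 were measured, the 3 genes included. Of the other 36, 3 passed 2-fold towards D351 and 1 towards D16, where 10.3% and 10.2% of all measured genes did. Their median log2 ratio was 0.031, against -0.022 over all 3934 measured genes. The lists therefore cover part of the pathway only. Under 2-fold lay 32 of the 36, and 20.5% of all measured genes passed 2-fold in either direction, so nothing particular to the pathway is read from these counts.

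**Figure D4:**
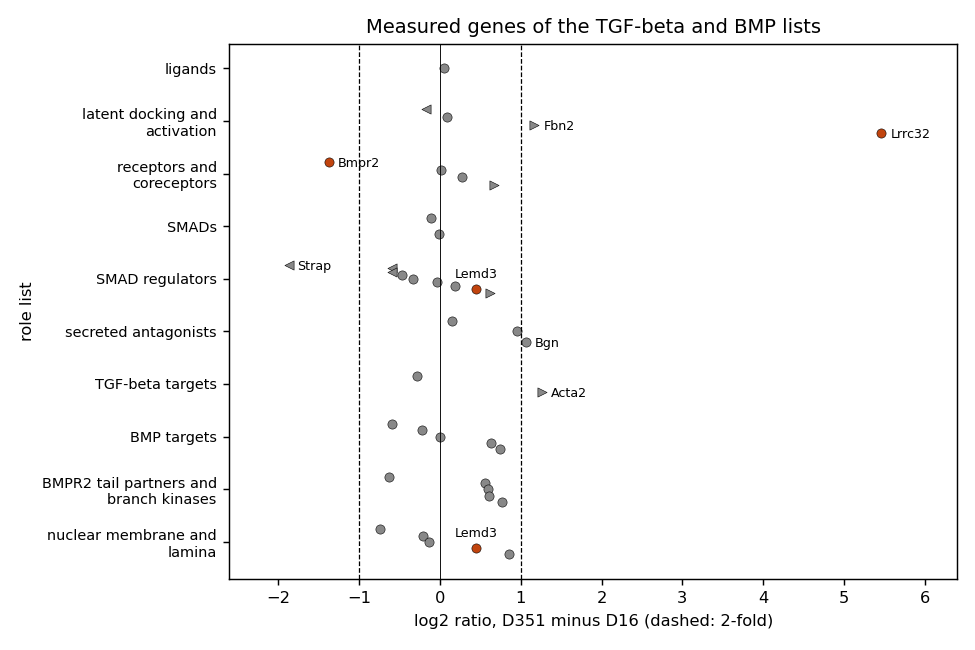
Log2 ratio, D351 minus D16, of each measured gene on the 10 role lists. Orange points are Lrrc32, Bmpr2 and Lemd3 (the last is on 2 lists), grey points are the other genes, triangles are lower bounds from a value dim in 1 clone, and dashed lines stand at 2-fold. Outside the 3 genes, Fbn2, Bgn and Acta2 pass the line towards D351 and Strap towards D16.

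Of 33 ligands on the list, 3 were on the array and 1 was measured. This was Lefty1, an antagonist ligand of Nodal, at 195.8 in D351 and 188.8 in D16 by a probe set marked r. Another probe set of Lefty1 was dim in both clones, at 0.3 in D351 and 0.2 in D16. None of the TGF-beta or BMP genes listed as ligands was measured, so these arrays give no reading of the ligands that GARP and BMPR2 bind. Gdf3 and Lefty2 were dim in both clones.

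Latent docking and activation had 6 of 24 genes on the array and 4 measured. Lrrc32 and Fbn2 passed 2-fold towards D351 and 0 genes towards D16. Fbn2, a fibrillin of microfibrils in which latent complexes are stored, stood at 14.4 in D351 and was dim in D16 at 0.6. It was at least 2.25-fold higher in D351, but under 2-fold with the floor at 11.2, the highest negative control. Itgb1, the integrin beta chain shared by many receptors, was at 131.4 in D351 and 124.0 in D16. Mmp9, a protease that can release latent TGF-beta, was dim in D351 and at 7.2 in D16, by a probe set marked r. The D16 value of Mmp9 also lay below the highest negative control. Ltbp4, a latent TGF-beta binding protein, and Emilin1 were dim in both. Lrrc32 was the gene of this list with the largest ratio, and it is the one selected on that ratio.

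Among receptors and coreceptors, 6 of 22 genes were on the array. Of the 4 measured, only Bmpr2 passed 2-fold. Tgfbr3, the coreceptor betaglycan, was at 48.1 in D351 and 47.8 in D16, a log2 ratio of 0.0090. Amhr2, the type II receptor for anti-Müllerian hormone, had 92.3 in D351 and 76.0 in D16 by its brightest probe set. Another of its probe sets read 1.5 in D351 and 11.0 in D16. The type I receptor gene Bmpr1b was at 10.2 in D351, below the highest negative control of 11.2, and dim in D16. Bmpr1a, a type I partner of BMPR2, and the activin receptor Acvr2b were dim in both clones, each by a probe set marked r. With no bright reading of a type I BMP receptor, the Bmpr2 value stands alone on the receptor side. The 4 genes are named because they are all that was measured on the list.

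Among the SMADs, which carry the signal into the nucleus, 3 of 8 were on the array and 2 measured. Smad4, the partner shared by both branches, was at 101.1 in D351 and 109.1 in D16. Smad5, of the BMP branch, was at 21.9 in D351 and 22.0 in D16. Both log2 ratios, -0.11 and -0.0066, were small beside the SD of 0.67 between probe sets of a gene. Smad2 was dim in both clones.

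Of 45 SMAD regulators, 15 were on the array and 9 measured. Strap, a WD-repeat protein that stabilizes the inhibitory SMAD at the type I receptor, was dim in D351 at 1.2 and stood at 23.4 in D16. It was at least 3.66-fold higher in D16, at least 2.09-fold with the floor at 11.2, and under 2-fold with the floor at 20.7. The other 8, Lemd3 among them, lay under 2-fold, and 6 of the 9 had a ratio below 0. Lemd3 was 1 of 3 genes on this list with a ratio above 0. Ldlrad4 and Tgif2, below 0, and Zfp423, above 0, stayed under 11.2, the highest negative control, in both clones. These signs therefore rest in part on readings that give no usable ratio. The list median was -0.33.

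Lemd3 also belongs to the proteins of the nuclear membrane and lamina, of which 11 of 25 were on the array and 5 measured. None passed 2-fold in either direction, and the median was -0.13. The brightest were Ankle2, another protein with a LEM domain, at 184.2 in D351 and 101.5 in D16, and the nuclear pore protein Nup153 at 74.1 in D351 and 81.1 in D16. Emd, the gene of the LEM protein emerin, and Lemd1 were dim in both clones. The measured lamina genes, Lmna and Lmnb1, had log2 ratios of -0.21 and -0.73, also under 2-fold. Both were read by probe sets marked r, and Lmnb1, at 7.7 in D351 and 12.8 in D16, lay below the highest negative control in D351.

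Secreted proteins that bind or block ligands had 4 of 25 genes on the array and 3 measured. Bgn, a small proteoglycan that binds TGF-beta, was at 4679.7 in D351 and 2238.3 in D16, 2.09-fold higher in D351, by a probe set whose mark, f, denotes possible sharing of sequence with related transcripts. Crim1, a membrane-anchored BMP-binding protein, and the protease gene Htra1 had log2 ratios of 0.95 and 0.15. All 3 ratios were above 0, and 1 passed 2-fold.

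Target genes give an indirect view of the pathway's output, and few were on the array. Of 31 TGF-beta targets 3 were on it and 2 measured. Acta2, smooth muscle actin, was at 15.4 in D351 and dim at 4.7 in D16, at least 2.41-fold higher in D351 but under 2-fold with the floor at 11.2. Klf11, a zinc finger repressor, had 139.2 in D351 and 169.9 in D16 by its brightest probe set, while another read 20.4 in D351 and 6.4 in D16. Of 24 BMP targets 5 were on the array, and all 5 measured ones lay under 2-fold with a median of 0. That median is the value of Hey1, at 8.7 in both clones by a probe set marked r. Hey1 lay below the highest negative control of 11.2 in both clones, so it gives no usable ratio. Apln, at 14.6 in D351 and 9.4 in D16, lay below 11.2 in D16. Atoh8, a helix-loop-helix factor, was at 192.2 in D351 and 114.5 in D16, and the T-box gene Tbx20 at 24.3 in D351 and 36.6 in D16.

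The kinases and partners that act beside the SMADs, including those that bind the tail of BMPR2, had 8 of 21 genes on the array and 5 measured. None passed 2-fold by its brightest probe set, and the median was 0.59. The brightest were the JNK kinases Mapk9, at 121.5 in D351 and 71.5 in D16, and Mapk8, at 92.3 in D351 and 61.3 in D16. Of the other probe sets of Mapk8, 1 read 18.6 in D351 and 9.5 in D16, and 1 was dim in both clones. The remaining one was dim in D351 at 6.3 and read 26.4 in D16. It passed 2-fold towards D16, against the direction of the brightest. Limk2, of the LIM kinases, was dim in both clones.

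The genes whose pair of intensities was most like that of each member were found by the Euclidean distance of the log2 values over the 2 arrays. Dim values were first raised to the floor. Such likeness over 2 values is a description only. Lrrc32 was nearest to Ano3 (distance 0.53), at 407.9 in D351 and 10.8 in D16, and then to Tram1l1, Cemip and Hoxb5os at distances of 0.78 to 1.12. Hoxb5os was dim in D16, at 2.2, so its distance rests on the floor. Bmpr2 was nearest to Sp4, at 22.7 in D351 and 64.3 in D16, followed by Zkscan17, Caap1 and Clcn2, all within 0.19. Lemd3 was nearest to Nedd4, at 78.0 in D351 and 56.9 in D16, followed by Itsn2, Mfsd8 and Tesmin, all within 0.076. The nearest genes thus lay farther from Lrrc32 than from Bmpr2 or Lemd3.

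Markers of cell types that a culture could hold were read beside the Lrrc32 value, since that gene is used by platelets, lymphocytes and vessel cells. None of the 8 regulatory T cell and lymphoid markers was on the array. Of 7 platelet markers only Itga2b was, at 49.9 in D351 and 38.7 in D16. Of 10 endothelial markers 3 were on the array, with a summed intensity of 100.9 in D351 and 22.4 in D16. Flt1 was at 87.6 in D351 and 1.3 in D16, Kdr at 9.5 in D351 and dim in D16, and Egfl7 dim in D351 and at 19.5 in D16. The D351 value of Kdr lay below the highest negative control of 11.2. The 4 smooth muscle markers on the array (of 8) summed to 1087.1 in D351 and 109.6 in D16, and all 4 passed 2-fold towards D351, where 10.3% of all measured genes did. The call of Acta2 among them is a lower bound that is lost with the floor at 11.2. The 4 embryonic fibroblast markers (of 10) summed to 2355.2 in D351 and 653.8 in D16, and all 4 passed 2-fold as well by their brightest probe sets. Most of both sums was Col5a1, at 1838.3 in D351 and 543.2 in D16, by a probe set marked f. Another probe set of Fgf10 read 28.6 in D351 and 17.9 in D16, under 2-fold. Those of Col5a1 and Mfap5 were dim in both clones. The mural list had only Angpt1, dim in D351 and at 26.2 in D16. No marker was at exactly 0 in either clone. Both sets of 4 were picked with their values known, and their part in the Lrrc32 difference was not tested.

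Both arrays had nearly the same trimmed mean, 20.01, so every ratio is relative to that common mean. The 9 hybridization control probe sets, added to each sample in fixed amounts, had log2 ratios of -0.83 to -0.60, brighter in D16. Scaled to these controls, the median of all measured genes moved to 0.61. Lrrc32 then had a log2 ratio of 6.15, Bmpr2 -0.68, under 2-fold, and Lemd3 1.14, past 2-fold. The direction of each gene held under both scalings, while the 2-fold calls of Bmpr2 and Lemd3 did not.

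**Figure D5:**
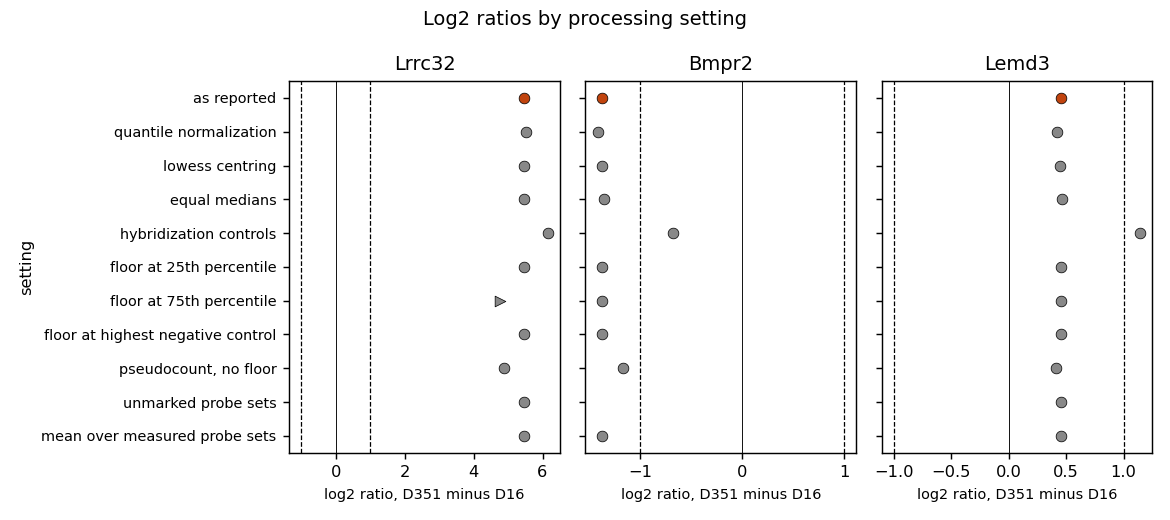
Log2 ratio, D351 minus D16, of Lrrc32, Bmpr2 and Lemd3 (1 panel each) as reported (orange) and under the other processing settings (grey), with dashed lines at 2-fold and a triangle for a lower bound. Only scaling to the hybridization controls moves Bmpr2 (-0.68) and Lemd3 (1.14) across the line, and Bmpr2 has no value from unmarked probe sets.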

How the data were processed

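Total RNA of 1 sample per clone was measured on 1 array each, and precision is limited by this number of arrays. The deposited table holds 1 linear intensity per probe set and array, and the software, scaling and detection calls behind it were not given in the sources used here. The 66 control probe sets were set aside. Gene names came from the platform annotation: 7717 probe sets had a single gene, and 7677 of them were found in the RefSeq table of GRCm38.p6, with 0 symbols changed. The brightest probe set, by mean floored log2 intensity, represents a gene. Each log2 ratio is D351 minus D16. With no replicate, no test was run, and 2-fold is the rule of size.

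The members, the gene lists and the marker lists were chosen with earlier results of these data known. Named from each list were genes past 2-fold, up to 4 per direction, or the 2 brightest where none was, and for each member the 4 nearest genes without a locus name. Other listed genes were named, after their values were seen, to account for a short list. The procedure was run on simulated arrays with planted changes in bright probe sets, larger than those of Bmpr2 and Lemd3. That run checked the calculation and gives no precision for the ratios reported here. Python 3.11.15, numpy 2.4.6, pandas 2.3.3, statsmodels 0.14.6 and matplotlib 3.10.9 were used. The alternatives were quantile normalization, lowess centring (span 0.3), equal medians, scaling to hybridization controls, other floors, a pseudocount of 6.4, a 3-fold rule, unmarked probe sets and the mean over probe sets.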

Additional observations from a re-analysis of the deposited data

How the results depend on the processing

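Some alternatives could not move the ratio of a member. The 3-fold rule, the mean over measured probe sets and floors of 1.8 and 11.2 left all 3 ratios as reported. Unmarked probe sets left those of Lrrc32 and Lemd3 so. The counts of alternatives below include these settings. Lrrc32 kept its direction and stayed past 2-fold under all 11 alternatives, with log2 ratios of 4.77 (a lower bound, floor at 20.7) to 6.15. Bmpr2 kept its direction under 10 alternatives and had no value with unmarked probe sets. It was under the rule of size in 2 of them, at -0.68 when scaled to the hybridization controls and at -1.37 with the 3-fold rule. Lemd3 kept its direction under 11 alternatives and passed 2-fold in 1, at 1.14 when scaled to the hybridization controls. That scaling turned the 50.1% of all 2-fold genes that were higher in D351 into 89.0%. On the pathway lists 4 of 39 measured genes passed 2-fold towards D351 and 2 towards D16 (all measured genes: 10.3% and 10.2%). The counts for D351 and D16 are given next, with the shares of all measured genes under the same setting in brackets. Scaled to the hybridization controls they were 15 and 1 of 42 (28.7% and 3.54%). With the floor at the 25th percentile they were 9 and 7 of 53 (14.4% and 15.5%), and at the 75th 2 and 1 (7.91% and 8.33%). With the floor at the highest negative control they were 2 and 2 (9.09% and 8.99%). A pseudocount gave 3 and 4 (8.30% and 8.07%), the 3-fold rule 1 and 1 (4.58% and 3.56%). Unmarked probe sets gave 2 and 1 of 23 (10.5% and 10.1%). Nothing particular to the pathway is read from these counts. Stricter floors test fewer genes (33 at 11.2 and 27 at 20.7, against 39). No paired analysis was possible because each clone has 1 array and no test was run.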

Other observations

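The nearest protein-coding genes with a probe set on the array, 3 on each side of a member along its chromosome, were chosen after the data had been seen. Around Lrrc32 on chromosome 7, 3 of 6 were measured and none was higher in D351. Acer3, an alkaline ceramidase gene, was at 214.8 in D351 and 474.7 in D16, a log2 ratio of -1.14. Gucy2d stood at 19.8 in D351 and 22.7 in D16, and Rps3 at 27.9 in D351 and 36.6 in D16. The 44.0-fold difference of Lrrc32 was thus not shared by the measured genes beside it.

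Around Bmpr2 on chromosome 1, 5 of 6 were measured. Gm973, which lies next to it, was at 8.2 in D351 and 24.6 in D16, a log2 ratio of -1.58, but its D351 value was within the range of the negative controls. On the other side Fam117b was at 45.7 in D351 and 41.3 in D16, and Raph1 at 63.5 in D351 and 42.2 in D16. Around Lemd3 on chromosome 10, 4 of 6 were measured. Cand1 was at 58.0 in D351 and 29.3 in D16, a log2 ratio of 0.99, and Mon2 at 79.4 in D351 and 54.3 in D16, a log2 ratio of 0.55, both under 2-fold. Rassf3 and Tbk1 were dim in D16 and, at 7.8 and 9.0 in D351, below the highest negative control of 11.2, so they give no usable ratio.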
